A study of Danio rerio with 24 samples.

Results

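Steroid hormones act on the ovary through receptors of several kinds. The 10 receptor genes described here are the nuclear estrogen receptors esr1, esr2a and esr2b, the androgen receptor ar, the progestin receptor pgr, the corticoid receptors nr3c1 and nr3c2, and the membrane-associated progestin binding proteins paqr7b, paqr8 and pgrmc1. They were chosen by name as steroid receptors, with earlier results of these data known. Each was represented on the array by a single RefSeq target, and these 10 were taken from 13547 gene symbols and 89208 targets in all. A target is the transcript that one or more probes were designed against.

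Ovarian RNA from adult female zebrafish (Danio rerio, wild-type AB strain) was measured on 24 arrays with a single dye, 6 for each of 4 treatments. The fish had been exposed as embryos, from 1 to 72 hours post fertilization, to atrazine, a triazine herbicide, at 30, 3 or 0.3 ppb or to none (0 ppb), then raised in clean water and sampled, per the labels, at 5 to 6 months of age. No other agent or mutation was used in any group, and the 0 ppb fish are the controls. The study's methods describe replicates as groups started on different days, and the labels number the arrays of a treatment as replicates without naming a day. Each replicate number had its own slide with 1 array of each treatment.

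The nuclear receptors are transcription factors that bind a steroid, enter or stay in the nucleus and switch genes on or off. In fish, estrogen receptors drive yolk protein genes in the liver and feedback and growth programs in the gonad, and the progestin receptor of the follicle cells is needed for ovulation. The mPR proteins encoded by paqr7b and paqr8 sit in the oocyte membrane and carry the rapid signal of the maturation-inducing progestin, and pgrmc1 is a heme-binding partner of membrane progestin signalling. The glucocorticoid receptor nr3c1 responds to cortisol, and the mineralocorticoid receptor nr3c2 is abundant in fish brain.

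Arrays that differ strongly from the others come first, because they decide which values can be compared. The 4 arrays of replicate 1 correlated with the other arrays at 0.0067 to 0.014 as deposited and at 0.47 to 0.72 once their spot grid was moved by 1 column and, on 2 of the 4 arrays, also by 2 rows, and they were left out. The 0.3 ppb arrays of replicates 3, 5 and 6 correlated with the 0 ppb arrays at 0.60 to 0.62, against 0.91 to 0.97 for the other 17 arrays of replicates 2 to 6. On these 3 arrays the median of 19 measured oocyte genes of a 20-gene list lay at -9.13 to -7.89 on the log2 scale relative to the 0 ppb arrays, and that of 21 measured brain genes of a 25-gene list at 8.21 to 8.47. On the 17 other arrays the same lists lay between -0.24 and 0.37 and between -0.18 and 2.07. The oocyte gene buc, for example, was at -3.33, -4.36 and -5.04, although the arrays are labelled ovary. These 3 arrays are described on their own and enter the comparisons only in alternatives given in the closing section. That left 5 arrays each at 0, 3 and 30 ppb and 2 arrays, replicates 2 and 4, at 0.3 ppb. Between 40.6% and 87.2% of spots were well above background on these 17 arrays, with the lowest value at 3 ppb, replicate 6. From the software's quality statistics that array was also treated as having a poor grid.

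Levels are log2 intensities relative to the 75th percentile of the array, so that 0 is the brightness of that percentile and each unit is a doubling. They are comparable between arrays for a gene, not between genes. Most receptors were measured well above background in the ovary. Of the 10, 6 (esr2a, esr2b, ar, nr3c1, paqr8 and pgrmc1) had at least 1 probe well above background on all 17 arrays, and esr1 and pgr had one on 16 of 17, the exception being 3 ppb, replicate 6. The probe for nr3c2 was well above background on 15 of 17 arrays. The gene paqr7b had a probe well above background on 12 of 17 arrays and on neither of the 2 arrays at 0.3 ppb. On 3 ppb replicate 6 no probe of esr1, pgr, nr3c2 or paqr7b and 1 of 4 probes of esr2b were well above background, so the levels of these genes on that array are given as measured but are not resolved from background. No probe of a receptor was saturated on any of these arrays.

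No receptor passed the test for a difference between doses. In the limma fit across 72202 targets, 0 of the 10 receptors were called at 0.3, 3 or 30 ppb against 0 ppb or at 30 against 3 ppb (Benjamini-Hochberg adjusted p below 0.05 and at least 1.5-fold), beside 0% of all targets in each comparison. The lowest adjusted p of a receptor was 0.84 at 0.3 ppb and 1.00 at 3 and 30 ppb. The analysis of variance with Tukey's test that the study's methods name, applied without adjustment over targets, also called 0 receptors in each comparison. Without adjustment, at an unadjusted p below 0.05 and 1.5-fold, limma passed 1 receptor at 0.3 ppb (pgrmc1, higher). Of all targets 3.71% passed there, 0.431% higher and 3.28% lower. At 3 ppb 1 receptor passed (esr2b, higher) beside 1.83% of all targets, 1.43% higher and 0.404% lower. At 30 ppb 0 receptors passed beside 1.23% (0.882% higher and 0.352% lower), and between 30 and 3 ppb 0 passed beside 0.903% (0.323% higher and 0.58% lower). With the replicate number as a block, 0 receptors were called after adjustment, while the count over all targets at 30 ppb went from 0 to 2, or 0.00277% (A_15_P100768 and CD606367, which have no gene name here). The unadjusted block passed esr2b alone, at 3 ppb, beside 5.58% of all targets, and 0 receptors at 0.3 ppb (5.64%), 30 ppb (3.56%) and 30 against 3 ppb (2.75%). The RNA came from whole tissue, so fewer cells of a type and less RNA per cell cannot be told apart in any of these values.

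**Figure D1:**
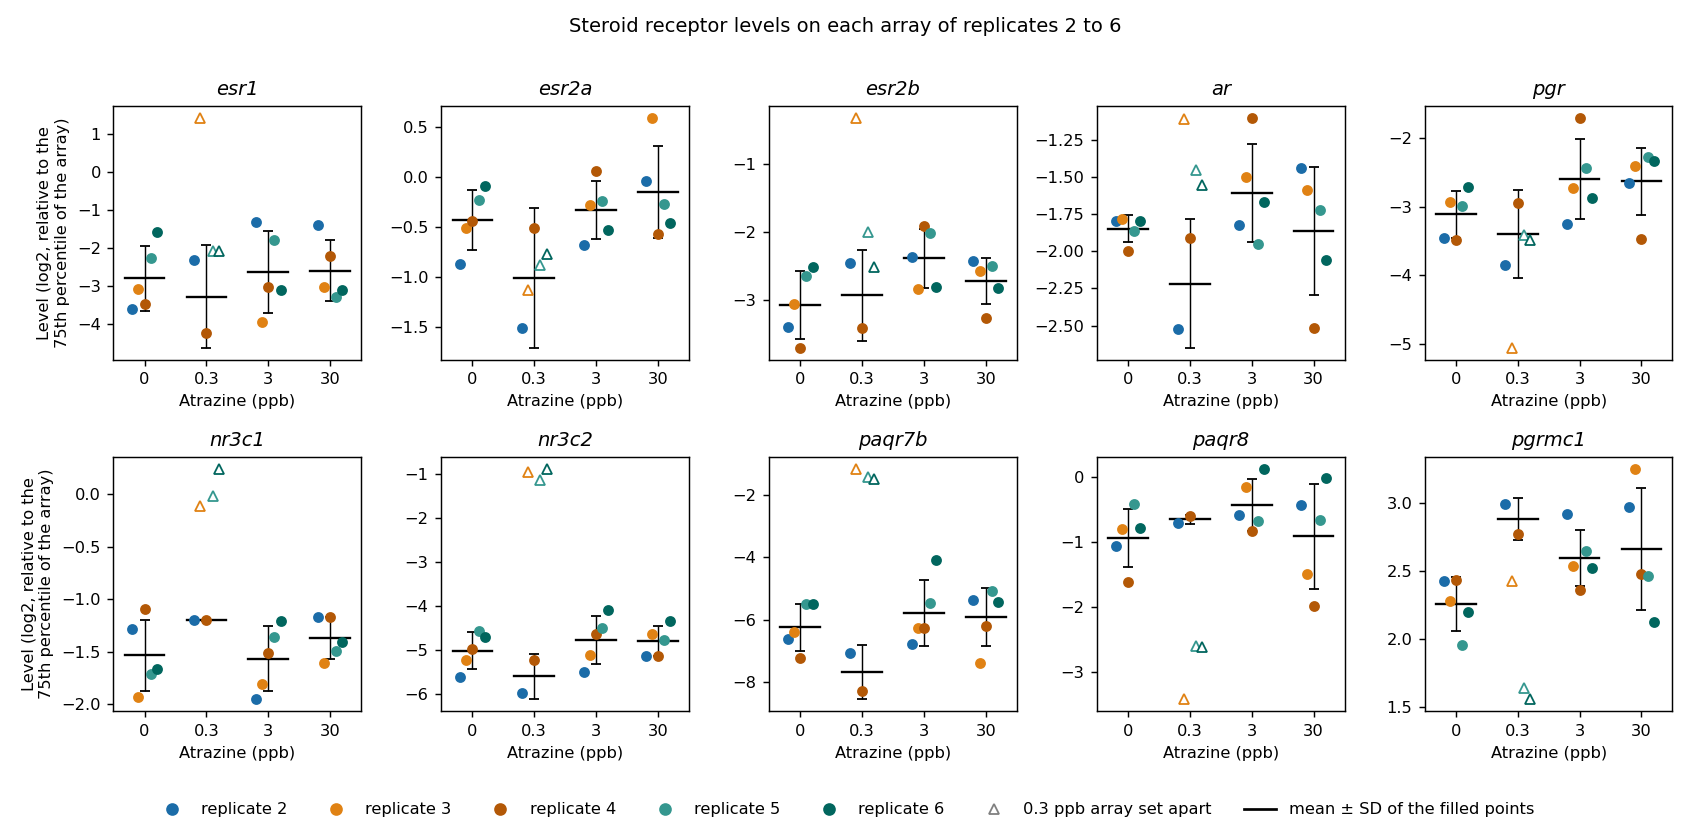
Level of each receptor (log2, relative to the 75th percentile of the array) on every array of replicates 2 to 6, by atrazine dose in ppb. Filled points are the 17 arrays compared, with bars for their mean ± SD, and open triangles are the 3 arrays at 0.3 ppb with low oocyte genes; the filled groups overlap for every receptor at 3 and 30 ppb, and the triangles stand clear of them for nr3c1, nr3c2, paqr7b and paqr8.

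At 3 ppb 9 of 10 receptors had a higher mean than at 0 ppb, with a median difference of 0.30 on the log2 scale, against 0.070 over all targets, of which 59.4% were higher. At 30 ppb 9 of 10 were higher as well, with a median of 0.25 against 0.091 and 63.9% of all targets. At 0.3 ppb 4 were higher and 6 lower, with a median of -0.33 against -0.37 for all targets. These comparisons share their 0 ppb arrays and do not count as separate observations of a direction. The shift of all targets at 0.3 ppb was -0.033 with the replicate block and -0.0062 after quantile normalization, so differences at that dose are read here also within the slide.

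Among the estrogen receptors, esr2b had the largest difference at 3 ppb. Its level at 0 ppb was -3.40, -3.06, -3.70, -2.64 and -2.52 in replicates 2 to 6 (mean -3.07 ± 0.50 SD, n = 5). At 3 ppb it was -2.37, -2.84, -1.91, -2.01 and -2.81 (-2.39 ± 0.44, n = 5), so 4 of 5 slides had a higher value at 3 ppb and the groups overlapped. The difference was 0.68 ± 0.29 (SE) on the log2 scale, or 1.60-fold with a 95% interval of 1.04 to 2.46, an unadjusted limma p of 0.034 and an adjusted p of 1.00. All 4 of its probes were higher at 3 ppb, by 0.53 to 0.97. Replicate 4 gave the largest difference within a slide, 1.80, and without that replicate the difference was 0.40; after quantile normalization it was 0.34. The slide with a lower value at 3 ppb was replicate 6 (-0.30), where 1 of 4 probes was well above background. Without replicate 6 the difference was 0.92. At 30 ppb the values of -2.43, -2.58, -3.25, -2.50 and -2.82 (-2.72 ± 0.33, n = 5) lay 0.35 ± 0.29 above 0 ppb, again with 4 of 5 slides higher. The difference between 30 and 3 ppb was -0.33 ± 0.29 (adjusted p of 1.00), so no order of the doses can be read from it.

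The second beta-type estrogen receptor, esr2a, which was measured by 1 probe because the other was well above background on 1 of 17 arrays, stayed close to its control level. Its controls were at -0.87, -0.51, -0.43, -0.23 and -0.085 in replicates 2 to 6 (-0.43 ± 0.30 SD, n = 5). The 3 ppb arrays were at -0.68, -0.27, 0.068, -0.23 and -0.52, and the 30 ppb arrays at -0.036, 0.60, -0.57, -0.27 and -0.46. The 30 ppb group held both the highest and the second lowest of these 10 treated values. The differences of 0.097 ± 0.26 and 0.28 ± 0.26 had 95% intervals of 0.73- to 1.57-fold and 0.82- to 1.78-fold. The 2 arrays at 0.3 ppb, at -1.51 and -0.51, lay 0.64 and 0.077 below the 0 ppb arrays of their slides.

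The alpha-type receptor esr1 varied more between arrays of the same dose than between doses. At 0 ppb it was -3.61, -3.06, -3.47, -2.27 and -1.57 in replicates 2 to 6, at 3 ppb -1.30, -3.94, -3.02, -1.78 and -3.09, and at 30 ppb -1.38, -3.01, -2.19, -3.28 and -3.10. High and low values occurred at each of these doses, and over the 17 arrays the gene spanned 2.94 on the log2 scale, a 7.65-fold range. The group means were -2.80 ± 0.86, -2.63 ± 1.07 and -2.59 ± 0.80 (SD, n = 5 each), so that the differences from 0 ppb of 0.17 ± 0.58 and 0.20 ± 0.58 (SE) had wide 95% intervals, 0.48- to 2.64-fold and 0.49- to 2.70-fold. At 0.3 ppb the 2 arrays were at -2.32 and -4.23.

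The spread of esr1 went with that of liver genes. A list of 12 genes of liver secretion and metabolism, 10 of them measured, had a median level between -4.85 and 3.65 relative to the 0 ppb arrays over the 17 arrays, by far the widest of the 8 marker lists measured. The arrays with the 5 highest levels of esr1 (3 ppb replicate 2, 30 ppb replicate 2, 0 ppb replicate 6, 3 ppb replicate 5 and 30 ppb replicate 4) had liver medians of 3.65, 2.61, 2.83, 2.43 and 1.94. The array with the lowest esr1, 0.3 ppb replicate 4, had the lowest liver median, -4.85. Over the 17 arrays Pearson's r of esr1 with the list was 0.86 and Spearman's rho 0.76, with r of 0.82 after each slide was centred, 0.90 after each dose was centred and 0.87 without the 2 arrays farthest from the median of the list. Within scan sessions r was 0.97 over the 6 arrays of replicates 5 and 6 and 0.62 over the 7 arrays of replicates 3 and 4. The liver list ranged from -3.09 to 2.83 at 0 ppb, -4.84 to 3.65 at 3 ppb and -4.09 to 2.61 at 30 ppb, and its part in the esr1 values was not tested. These correlations, among 80 computed between receptors and lists, describe arrays that share slides and sessions and carry no p.

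**Figure D2:**
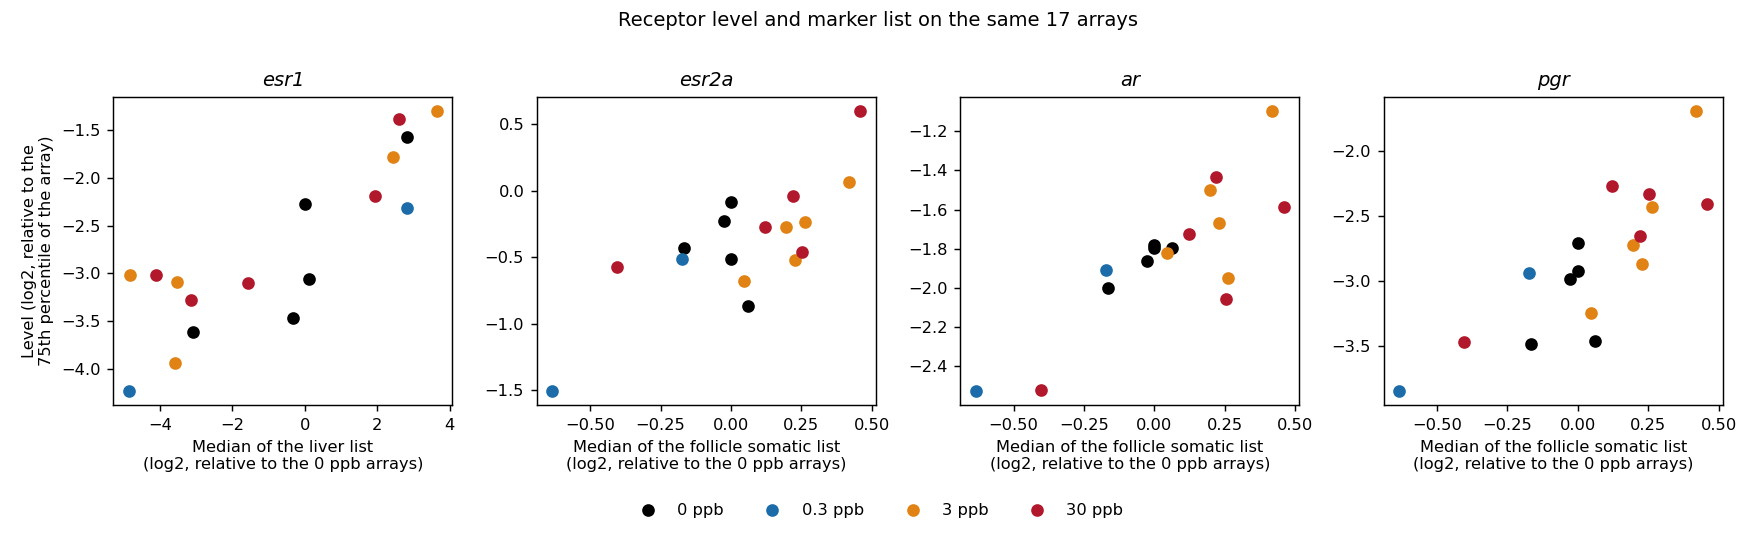
Level of esr1 against the median of the liver list, and of esr2a, ar and pgr against the median of the follicle somatic list, on the 17 arrays, colored by dose (all axes log2). The esr1 points rise with the liver list at every dose (r = 0.86), and the other receptors rise with the follicle somatic list (r = 0.76, 0.82 and 0.83) with the lowest point at 0.3 ppb, replicate 2.

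The androgen receptor ar was the most even of the nuclear receptors at 0 ppb, with -1.80, -1.78, -2.0, -1.86 and -1.79 in replicates 2 to 6 (-1.85 ± 0.092 SD, n = 5). The treated groups were wider, with -1.82, -1.50, -1.10, -1.95 and -1.67 at 3 ppb and -1.43, -1.59, -2.52, -1.72 and -2.05 at 30 ppb. At 3 ppb 3 arrays lay above all the controls and none below, and at 30 ppb 3 lay above and 2 below. Of the 3 arrays at 3 ppb, replicate 6 (-1.67) had 5 of 11 probes well above background. The differences of 0.24 ± 0.23 and -0.018 ± 0.23 (SE) had 95% intervals of 0.85- to 1.65-fold and 0.71- to 1.38-fold. Of its 11 probes, 9 were higher at 3 ppb and 7 at 30 ppb. The level of 1 probe did not follow that of the gene over the 17 arrays (r = 0.0024).

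The nuclear progestin receptor pgr had a higher mean at 3 and at 30 ppb than at 0 ppb, without reaching the threshold. At 0 ppb it was -3.46, -2.92, -3.48, -2.98 and -2.71 (-3.11 ± 0.34 SD, n = 5), at 3 ppb -3.25, -2.73, -1.70, -2.43 and -2.87 (-2.59 ± 0.58, n = 5), and at 30 ppb -2.65, -2.41, -3.47, -2.27 and -2.34 (-2.63 ± 0.49, n = 5). The groups overlapped at each dose. The difference at 30 ppb was 0.48 ± 0.31 (SE), 1.40-fold with a 95% interval of 0.88 to 2.23, and was positive on 5 of 5 slides, by 0.014 to 0.81. At 3 ppb it was 0.52 ± 0.31, 1.43-fold with an interval of 0.90 to 2.28, and positive on 4 of 5 slides. The slide of replicate 4 gave 1.79 and the other slides -0.16 to 0.55, and without replicate 4 the difference was 0.20. The value of -0.16 came from replicate 6, where neither probe was well above background at 3 ppb. Without replicate 6 the difference was 0.69. The adjusted limma p was 1.00 at either dose. The 2 probes of pgr had the same direction, higher by 0.32 and 0.72 at 3 ppb and by 0.42 and 0.55 at 30 ppb.

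Over the 17 arrays, though not within each scan session, the nuclear receptors esr2a, ar and pgr varied together and with genes of the follicle wall. A list of 17 follicle somatic genes (granulosa and theca markers and steroidogenic enzymes, none of them a receptor described here), 14 of them measured, correlated with pgr at r = 0.83 (rho 0.82), with ar at 0.82 (rho 0.62) and with esr2a at 0.76 (rho 0.56) over the 17 arrays. Within slides the values were 0.84, 0.85 and 0.77. Without the 2 arrays farthest from the median of the list they were 0.74, 0.60 and 0.60. In the 6 arrays of replicates 5 and 6 alone r was 0.52 for pgr, -0.29 for ar and -0.69 for esr2a, against 0.88, 0.90 and 0.87 in the 7 arrays of replicates 3 and 4, so the relation did not hold within each session. The receptors themselves correlated at 0.74 (esr2a with pgr), 0.72 (ar with pgr) and 0.66 (esr2a with ar), among 8 of 45 receptor pairs above 0.5. In the arrays of replicates 5 and 6 alone these pairs were at -0.048, -0.37 and -0.0032, against 0.68, 0.91 and 0.60 in replicates 3 and 4. Without the 2 arrays farthest from the median they were 0.62, 0.43 and 0.49. The receptor nr3c2 also went with the follicle somatic list, at r = 0.64 (0.83 within slides, 0.46 without the 2 farthest arrays). Its r was higher with the brain (0.79), pituitary (0.79) and muscle (0.67) lists, so the relation was not particular to follicle genes. After quantile normalization r was 0.44 with the follicle somatic list, -0.43 with brain, 0.036 with pituitary and 0.29 with muscle. Its r with the follicle somatic list was positive in each of these sessions, 0.61 for the 6 arrays and 0.78 for the 7. Across the 17 arrays nr3c2 correlated with pgr at 0.67, esr2a at 0.63 and ar at 0.36. For the 6 arrays alone its pairs were at -0.30, -0.85 and -0.022, against 0.70, 0.89 and 0.60 for the 7. The follicle somatic list ranged from -0.17 to 0.061 in the controls, from 0.045 to 0.42 in the 3 ppb group and from -0.40 to 0.46 in the 30 ppb group (medians 0, 0.23 and 0.22), and its part in the pgr difference was not tested.

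**Figure D3:**
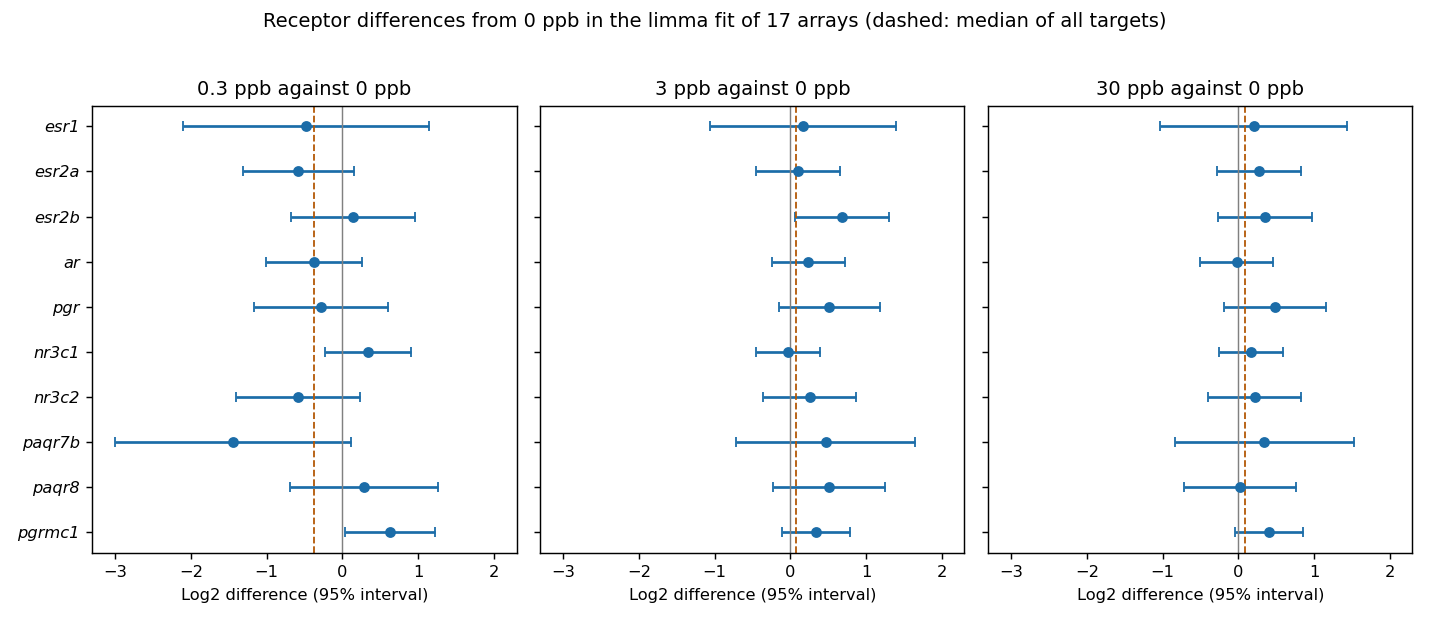
Log2 difference of each receptor from 0 ppb in the limma fit of 17 arrays, with 95% intervals, at 0.3, 3 and 30 ppb. The dashed line is the median of all 72202 targets (-0.37, 0.070 and 0.091); the intervals exclude 0 for esr2b at 3 ppb and pgrmc1 at 0.3 ppb alone, before adjustment over targets.

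The glucocorticoid receptor nr3c1 was steady over the doses. Its controls were at -1.28, -1.93, -1.09, -1.71 and -1.66 in replicates 2 to 6. The 3 ppb arrays were at -1.95, -1.81, -1.51, -1.36 and -1.21, the 30 ppb arrays at -1.16, -1.61, -1.17, -1.49 and -1.41, and the 2 arrays at 0.3 ppb were at -1.19 and -1.2. The differences of -0.031 ± 0.20 at 3 ppb and 0.17 ± 0.20 at 30 ppb (SE) had 95% intervals of 0.73- to 1.32-fold and 0.84- to 1.51-fold, the narrowest of the 10 receptors.

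The mineralocorticoid receptor nr3c2 was dim and differed between scan sessions. Its controls were at -5.61, -5.23, -4.98, -4.56 and -4.70 in replicates 2 to 6, the 3 ppb arrays at -5.49, -5.11, -4.64, -4.50 and -4.08, and the 30 ppb arrays at -5.13, -4.63, -5.14, -4.78 and -4.33. Replicate 2 lay between -5.97 and -5.13 (median -5.55), replicates 3 and 4 between -5.23 and -4.63 (median -5.11), and replicates 5 and 6 between -4.78 and -4.08 (median -4.53). At 3 ppb it lay 0.066 to 0.34 above 0 ppb on the slides of replicates 2 to 5, and on that of replicate 6 its probe was not well above background. The difference was 0.25 ± 0.29 (adjusted p of 1.00, and 0.71 with the replicate block), and 0.16 without replicate 6. After quantile normalization the sign turned, to -0.33.

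Of the membrane progestin receptors, paqr8, the mPR beta gene, was at -1.07, -0.81, -1.61, -0.42 and -0.79 in the controls of replicates 2 to 6 (-0.94 ± 0.44 SD, n = 5). The 3 ppb arrays were at -0.59, -0.15, -0.84, -0.68 and 0.13, and the 30 ppb arrays at -0.42, -1.49, -1.99, -0.66 and -0.0077. The 30 ppb group held both the lowest and the second highest of these 15 values, and the 2 arrays at 0.3 ppb were at -0.70 and -0.60, within the range of the controls. Its difference was 0.51 ± 0.35 (SE) at 3 ppb, with 4 of 5 slides higher, and 0.025 ± 0.35 at 30 ppb, with 2 of 5 higher. The 95% intervals of 0.85- to 2.39-fold and 0.61- to 1.70-fold include no change.

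The mPR alpha gene paqr7b was near the detection limit in ovary. Its controls were at -6.61, -6.38, -7.22, -5.50 and -5.50 in replicates 2 to 6 (-6.24 ± 0.74 SD, n = 5). The 3 ppb arrays were at -6.79, -6.27, -6.26, -5.47 and -4.08, and the 30 ppb arrays at -5.38, -7.39, -6.20, -5.09 and -5.43. These groups overlapped over most of their range, and the 95% intervals of their differences from the controls, 0.61- to 3.13-fold and 0.56- to 2.88-fold, were the widest of the membrane receptors. On the 2 arrays at 0.3 ppb the level was -7.07 and -8.30, and neither probe was well above background. With those arrays set at the lowest signal of any probe that counted as well above background, the 0 ppb mean of -6.24 was 1.76-fold higher than at 0.3 ppb. That signal is not the detection limit of the paqr7b probes, so the fold is not a lower bound. The measured difference was -1.44 ± 0.73 (SE; adjusted limma p of 0.84). The 0 ppb arrays of the same slides as those 2 arrays, replicates 2 and 4, were lower than the other controls, and against them alone the fold was 1.1. The slides of replicates 2 and 4 gave differences of -0.46 and -1.08, and under another background correction (normexp) the sign turned, to 0.035. Like nr3c2, the gene was brighter in the session of replicates 5 and 6, at -5.50 to -4.08, than in replicates 3 and 4, at -8.30 to -6.20.

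The membrane-associated receptor component pgrmc1 was bright on every array, with all 4 probes well above background on each. At 0 ppb it was 2.43, 2.28, 2.44, 1.96 and 2.2 (2.26 ± 0.20 SD, n = 5), at 0.3 ppb 2.99 and 2.77, at 3 ppb 2.92, 2.54, 2.36, 2.65 and 2.52 (2.60 ± 0.21, n = 5) and at 30 ppb 2.97, 3.25, 2.48, 2.46 and 2.13 (2.66 ± 0.45, n = 5). The 2 arrays at 0.3 ppb lay above all 5 controls, as did 3.55% of all targets, and no other receptor was above or, with 10.2% of all targets, below them. No receptor lay wholly above (0.384% and 0.418% of all targets) or wholly below (0.188% and 0.0942%) the controls at 3 or 30 ppb, nor did any separate 30 from 3 ppb (0.067% above and 0.0624% below). The difference of pgrmc1 was 0.62 ± 0.28 (SE) at 0.3 ppb, 1.54-fold with a 95% interval of 1.02 to 2.32, an unadjusted limma p of 0.040 and an adjusted p of 0.84. Within the slides of replicates 2 and 4 the difference at 0.3 ppb was 0.57 and 0.34 (1.48- and 1.26-fold). With the replicate block it was 0.53 (unadjusted limma p of 0.058). Without the block the difference of pgrmc1 was 0.34 ± 0.21 at 3 ppb and 0.40 ± 0.21 at 30 ppb (0.26 without replicate 3), with adjusted p of 1.00. At each of these 2 doses 4 of 5 slides were higher. All 4 probes were higher at all 3 doses, by 0.27 to 0.77.

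The 3 arrays at 0.3 ppb with low oocyte and high brain genes had a different receptor profile from the 17 others. Both corticoid receptors and paqr7b lay above every one of the 17 arrays on all 3, and paqr8 lay below every one. Over all targets 27.8% lay wholly above and 17.6% wholly below, against 3 and 1 of the 10 receptors, a share above that is near that of all targets. The upper ends of the ranges of nr3c2 and paqr7b over the 17 arrays come from 3 ppb replicate 6, where neither was well above background. The largest departure was that of paqr7b, at -1.16, -1.43 and -1.50 in replicates 3, 5 and 6, against -8.30 to -4.08 on the 17 arrays, which was 37.4-, 16.9- and 16.0-fold above the 0 ppb arrays of the same slides. The level of nr3c2 was -0.94, -1.13 and -0.88 against -5.97 to -4.08, or 19.5-, 10.8- and 14.2-fold above the same controls. For nr3c1 it was -0.11, -0.018 and 0.24 against -1.95 to -1.09, or 3.52-, 3.24- and 3.73-fold above. In contrast paqr8 was at -3.42, -2.61 and -2.62 against -1.99 to 0.13, or 6.13-, 4.55- and 3.55-fold below. All probes of these 4 genes were well above background on the 3 arrays. On the 0 ppb array of replicate 3, 1 of 2 probes of paqr7b was well above background, so the size of its 37.4-fold difference is not resolved.

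**Figure D4:**
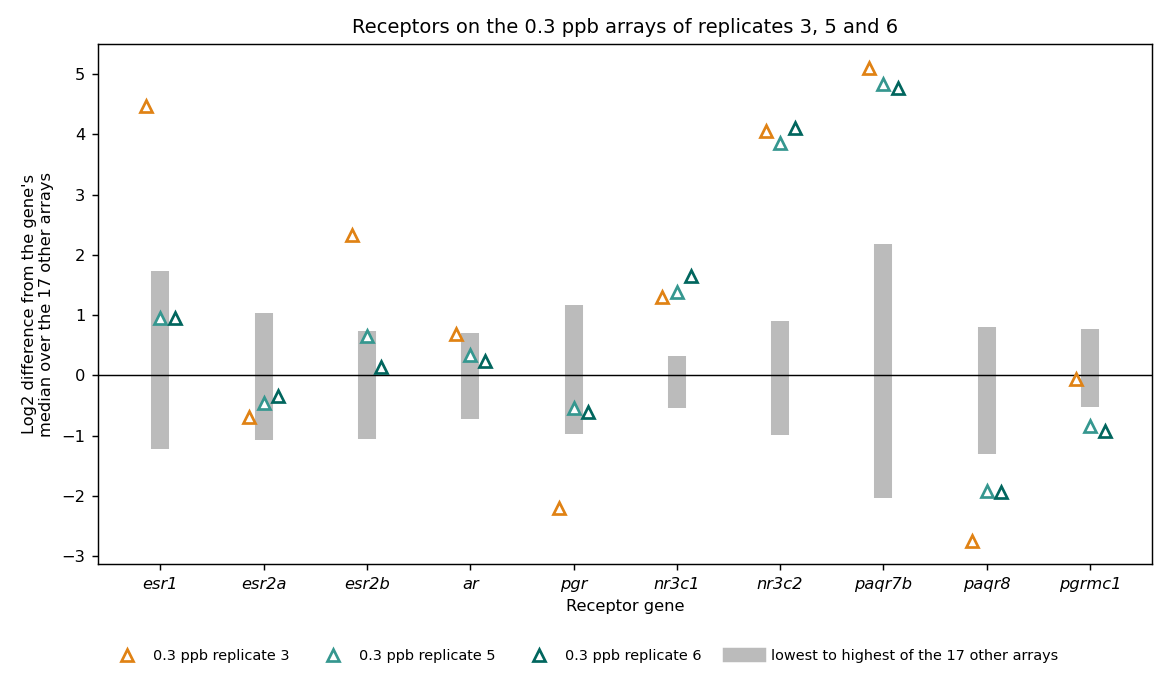
Log2 difference of each receptor from its own median over 17 arrays, with triangles for the 0.3 ppb arrays of replicates 3, 5 and 6 and grey bars for the range of the 17 arrays. All 3 triangles lie above the bar for nr3c1, nr3c2 and paqr7b and below it for paqr8, and for esr1, esr2b and pgr the triangle of replicate 3 alone lies outside.

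The 3 arrays did not share one profile for the other receptors. Replicate 3 alone lay outside the range of the 17 arrays for esr1 (1.44, against -4.23 to -1.30), esr2b (-0.31, against -3.70 to -1.91) and pgr (-5.06, against -3.85 to -1.70). It also had the highest liver list of all arrays, 6.03, while the list was at -1.29 and -4.18 in replicates 5 and 6, whose esr1 of -2.07 each lay within the range. Replicates 5 and 6 lay below the range for pgrmc1 (1.64 and 1.56, against 1.96 to 3.25). The levels of esr2a (-1.13, -0.88 and -0.77) and ar (-1.10, -1.45 and -1.55) lay within the range. Beside the brain list, the blood list (7 of 8 genes measured) lay at 3.57 to 4.90 on the 3 arrays, against -0.94 to 2.25 on the 17, and the muscle list (12 of 12) at 0.94 to 2.99, against -0.40 to 0.85. The pituitary list, at -0.81 to 0.99, lay near that of the 17 arrays, at -0.63 to 1.2. Of its 11 targets 2 to 9 were well above background on the 3 arrays and 0 to 9 on the 17. Its gene pomca, at -0.64, 1.00 and 0.87, lay above the 17 arrays (-4.01 to -2.54). Its gene lhb, at -5.15, -3.84 and -4.01, lay within their range (-6.68 to -3.13). The part of these lists in the receptor levels was not tested.

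For each receptor above background on all 17 arrays, the 2 named genes with the most similar level over those arrays were looked up among 13253 named targets. For esr2b they were slc67a1 (r = 0.94) and f10 (0.89), for ar dzip1 (0.91) and ppap2d (0.91), and for esr2a irx5a (0.90) and dnase1l4.1 (0.89). For paqr8 they were ghdc (0.85) and tnni2b.1 (0.85), for pgrmc1 etv5b (0.83) and vps26a (0.81), and for nr3c1 kif3a (0.81) and zgc:174646 (0.78). The highest of so many correlations over 17 arrays is large by selection, and these are given as names only.

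The partners and targets of the receptors were examined as 8 lists, and limma called 0 genes of any list at any dose, as for all targets. The lists are not fully separate, since some share fkbp5 or cyp19a1b and the estrogen responsive list includes the receptor esr1. Among nuclear receptor coregulators (10 of 20 genes tested), nr0b1, an orphan receptor without a DNA-binding domain of the usual kind that represses steroidogenic transcription in mammals, had the lowest p of all 72202 targets at 3 and at 30 ppb, in comparisons that share the 0 ppb arrays. Its level was -4.68, -4.15, -4.45, -4.36 and -3.67 in replicates 2 to 6 at 0 ppb. It was -2.67, -2.93, -1.98, -2.53 and -2.87 at 3 ppb and -2.24, -2.61, -2.92, -2.69 and -2.39 at 30 ppb. In this mean of 2 probes neither treated group overlapped with the controls. On the 2 arrays at 0.3 ppb it was -3.69 and -4.27, within the range of the controls. The differences were 1.67 ± 0.24 and 1.69 ± 0.24 (SE), with adjusted limma p of 0.31 and 0.26, which did not pass the threshold. The 2 probes differed in size, with 2.2 and 2.74 in the first, which was well above background on all 17 arrays, and 1.13 and 0.64 in the second. In the second probe both treated groups overlapped with the controls (-5.04 to -3.76). At 30 ppb it was at -4.52 to -3.01. At 3 ppb replicate 6 alone (-3.88, not well above background) lay within the range of the controls. When the filter kept no probe that fell short of background on any of the 17 arrays, 21644 targets remained. That filter dropped the second probe of nr0b1, so its differences there were those of the first probe, 2.2 and 2.74. On that probe alone nr0b1 was called at both doses (adjusted limma p of 0.037 and 0.0022). Under the other alternatives it was not called, and its adjusted limma p was no lower than 0.11 (3 ppb) and 0.12 (30 ppb).

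Among the enzymes that make or inactivate the ligands (17 of 22 tested), hsd11b2, which inactivates cortisol and makes 11-ketotestosterone in fish, had a mean of 0.59 ± 0.31 (SD) at 3 ppb against -0.57 ± 0.46 at 0 ppb, and the groups did not overlap. The difference was 1.16 ± 0.37 (SE; adjusted limma p of 1.00). At 30 ppb it was 0.92 ± 0.37, and the groups overlapped through replicate 4, at -1.04. The progestin-forming enzyme hsd3b2 had 1.65 ± 0.80 (SD) at 30 ppb against 0.24 ± 1.31 (adjusted p of 1.00). In the list of 7 pituitary hormone receptors, 6 of them tested, the prolactin receptor prlrb lay at -6.56 and -6.68 at 0.3 ppb, where its probe was not well above background, against -5.68 to -3.73 in the controls (adjusted limma p of 0.84). Its relative ghrb, a growth hormone receptor, had a difference of 0.59 ± 0.38 at 3 ppb.

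Chaperones and co-chaperones of nuclear receptors (13 of 13 tested) had medians of 0.10, 0.077 and 0.15 at 0.3, 3 and 30 ppb. The lowest p among them were those of stub1 (0.35 ± 0.17 at 30 ppb) and stip1 (0.26 ± 0.17 at 30 ppb). Of 8 other steroid receptors and orphan relatives tested, paqr5a had 0.34 ± 0.20 at 30 ppb and paqr7a -1.13 ± 0.73 at 0.3 ppb. Within slides paqr7a differed in direction. It was at -4.39 against -3.06 at 0 ppb in replicate 2, and at -4.44 against -4.61 in replicate 4. The coregulator smarca4a, a chromatin remodelling ATPase, had -0.27 ± 0.17 at 3 ppb. Of 13 glucocorticoid responsive genes tested, nfkbiaa and per1b led with 0.36 ± 0.32 and 0.23 ± 0.26 at 3 ppb. Among 9 progestin and ovulation genes tested, with a median of 0.25 at 3 ppb, the lowest p were those of runx1 at 3 ppb (1.09 ± 0.48) and adamts15a at 0.3 ppb (-1.50 ± 0.67). The probe of runx1 was not well above background on replicates 3 and 6 at 3 ppb or replicates 3 and 4 at 0 ppb, nor were those of adamts15a on replicate 2 at 0.3 ppb, so these sizes are not resolved. All these adjusted p lay at 0.84 or above. Of 6 estrogen responsive genes tested, igfbp1a had 0.72 ± 0.48 at 30 ppb, and the vitellogenin gene vtg2, a liver yolk protein gene and estrogen target, had -3.44 ± 2.82 at 3 ppb with SDs of 2.36 at 0 ppb and 5.64 at 3 ppb, the arrays on which the liver list ranged as given above.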

How the data were processed

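The authors hybridized Cy3-labelled RNA to a custom Agilent array and read the spots with Agilent Feature Extraction 11.5; the deposited intensity of each spot is corrected for its own array's background and not normalized between arrays. The authors also deposited the median intensity of spot and background pixels and software marks per spot (other columns). GeneSpring values were not used here.

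From these, the log2 intensity minus the array's 75th percentile was computed without spots marked as outliers (1.69%). A probe was kept if it rose well above background on 5 or more of the 20 arrays of replicates 2 to 6 (108937 of 128291), and spots and probes of a target were averaged after centring each probe, so that a marked probe does not shift its target. This left 72744 targets, of which 72202 had 2 values in each group. Of the 700 receptor probe values, 6 were marked. limma 3.58.1 in R 4.3.3 fitted 17 arrays in 4 groups; the 2 arrays at 0.3 ppb were assumed to vary like the rest. The receptors and gene lists were chosen with earlier results of these data known. Gene names come from RefSeq accessions (table of assembly GRCz12tu); the named genes are the 10 receptors, the 2 genes most correlated with each receptor detected on all 17 arrays, and, for lists with no call, the 2 lowest limma p over 3 comparisons. Tables and figures used data.table (version 1.17.8), Python 3.11.15, pandas 2.3.3, numpy 2.4.6 and matplotlib 3.10.9.

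Each replicate number had its own slide. The study's methods define biological replicates as groups started on different days, but the labels do not tie the numbers to days. Deviations from the group means correlated above 0.1 in 17 of 21 pairs with the same number (median 0.35), against 30 of 84 pairs with different numbers (median -0.14). Position on the slide cannot be told apart from dose, and slides were scanned in 3 sessions holding all doses. From the software's quality statistics, 2 of the 17 arrays were treated here as having a poor grid (3 ppb replicate 6 and 30 ppb replicate 2). Neither grid was shifted in rows or columns. The fit was tested on simulated arrays of 65189 targets, 200 of them changed. At 3 and 30 ppb it recovered 12% and 11% of those changed by 1 (log2), 46.5% and 43.5% of those changed by 2, and 82% and 81.5% of those changed by 4. The number of arrays limits the precision. Alternatives were quantile normalization, normexp with offset 50 on the median pixel signals, no filter or a strict one, a replicate block, other sets of arrays, each replicate left out, the median over probes and other thresholds.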

Additional observations from a re-analysis of the deposited data

Results flagged for a closer look

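In none of 30 groups of 5 arrays (10 receptors at 0, 3 and 30 ppb, replicates 2 to 6) did a single array stand apart from the rest by Dixon's criterion. The 0.3 ppb arrays of replicates 3, 5 and 6, which were left out of the fit of 17 arrays, carried receptor signal above every one of the 17 arrays compared. The lowest of the 3 levels was -0.11 for nr3c1 (highest of the 17 arrays -1.09), -1.13 for nr3c2 (-4.08) and -1.50 for paqr7b (-4.08). The highest values of nr3c2 and paqr7b among the 17 arrays come from 3 ppb replicate 6, where neither was well above background. Of all targets 27.8% lay above the 17 arrays in the same way, so 3 of 10 receptors is near that share. In replicate 3 alone esr1 reached 1.44 (-1.30) and esr2b -0.31 (-1.91).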

How the results depend on the processing

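No receptor was called in any comparison under any alternative that adjusts p over targets. Of 580 receptor differences over 15 alternatives, 548 moved by less than 1 SD between replicates and 65 changed sign, none of them called before or after; 20 of the sign changes came from the fits that add the 3 set-apart arrays (5) or all 24 arrays (15). With all 20 arrays of replicates 2 to 6 the difference at 0.3 ppb became 2.19 for nr3c2, 2.35 for paqr7b and -1.05 for paqr8. Without adjustment, 2682, 1323, 891 and 652 targets passed at 0.3, 3 and 30 ppb against 0 ppb and at 30 against 3 ppb, with 1, 1, 0 and 0 receptors, and with the replicate block, a combination chosen after seeing the data, 4071, 4028, 2568 and 1987, with 0, 1, 0 and 0 receptors. The methods' analysis of variance without adjustment called 441, 263, 165 and 80 targets, and after adjustment 0. With adjustment, where limma called 0 targets, no filter gave 1 at 3 ppb and 1 at 30 against 3 ppb. The strict filter gave 1 at 3 ppb and 2 at 30 ppb (nr0b1 in each, on 1 of its 2 probes). The replicate block gave 2 at 30 ppb, all 20 arrays 3 at 0.3 ppb (sik2a and 2 without a gene name), and only the 2 groups compared 3 at 0.3 ppb. Leaving out each replicate gave 0 to 15 at 0.3 ppb, 0 to 4 at 3 ppb, 0 to 4 at 30 ppb and 0 to 1 at 30 against 3 ppb, the 15 coming without replicate 2, which leaves 1 array at 0.3 ppb, and the 4 without replicate 6. Paired by replicate number, no other call changed. Leaving out the 2 arrays with a poor grid, an alternative chosen after seeing the data, gave 1 at 30 ppb and 1 at 30 against 3 ppb. Of the receptors outside the range of the 17 arrays on all 3 set-apart arrays, 4 became 5 after quantile normalization, with pgr below, where 25.5% of all targets lay above and 21.7% below. At 3 ppb the upper 95% bounds of single receptors lay between 1.32-fold (nr3c1) and 3.13-fold (paqr7b), and true differences up to those sizes are compatible with these arrays.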
